A study of Neurospora crassa with 4 samples.

Results

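The untreated difference between the Δ*czt-1* strain and the wild type of *Neurospora crassa* was read from a pair of RNA-seq libraries, 1 from germinating conidia of the deletion strain and 1 from those of the wild type, both given the solvent DMSO. Conidia had 6 h in shaken minimal medium at 26 °C under constant light, and DMSO was then present for 1 h. The table lists an FPKM for 9691 rows, a row being a gene or, in 66 cases, several joined loci, and FPKM is the number of fragments scaled to transcript length and to the mapped reads of the library. The rows described here are the 7312 that reach an FPKM of 1 in at least 1 of these libraries. The other 2 of the 4 libraries come from the same strains after 1 h with staurosporine at 20 μM, which inhibits protein kinases, and stand here only beside the DMSO values. Each library is 1 culture and the deletion is represented by 1 strain whose mating type the labels do not give, so no difference has a replicate check, no test was run, and all calls are counts by size. A difference is Δ*czt-1* minus wild type on the log2(FPKM + 1) scale, which understates the change of weakly expressed genes.

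CZT-1 belongs to the zinc cluster transcription factors, a class of DNA-binding proteins found in fungi, and is known for its part in the response of *N. crassa* to staurosporine. Germinating conidia leave dormancy by building ribosomes and mitochondria and by taking up sugar, which is respired and, in part, fermented to ethanol. *N. crassa* strains carry mating type A or a, and each type makes its own peptide pheromone, CCG-4 in A and MFA-1 in a.

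The deleted gene was low in both Δ*czt-1* libraries. *czt-1* (NCU09974) had 2.26 FPKM in Δ*czt-1* with DMSO, against 19.7 FPKM in the wild type with DMSO, a difference of −2.67. With staurosporine it had 1.54 FPKM in Δ*czt-1*, against 384 FPKM in the wild type. The gene next to it on 1 side, NCU09973, a hypothetical protein, rose to 31.2 FPKM in Δ*czt-1*, against 7.88 FPKM in the wild type (1.86), and had 23.5 and 13.7 FPKM with staurosporine. On the other side lies *abc3* (NCU09975), which encodes a multidrug resistance transporter, with 13.4 FPKM in Δ*czt-1* and 6.79 FPKM in the wild type (0.88) with DMSO. The further neighbours were closer between the strains, with differences of 0.67 for NCU09972, 0.50 for NCU09971, 0.37 for NCU09976 and −0.18 for NCU09977, the last 2 of which were under 1 FPKM in both DMSO libraries.

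The 2 DMSO libraries were close for most genes. Of the rows kept, 79.2% lay within 1.5-fold. Taken over genes, the differences had an SD of 0.54, compared with 0.90 for the strain differences under staurosporine. At least 2-fold higher in Δ*czt-1* were 204 rows, 2.79% of those kept, and at least 2-fold lower were 186, or 2.54%. Together they are 5.33% of the rows kept. Of these 390 rows, 249 (63.8%) are described only as hypothetical proteins, compared with 42.7% of all rows kept. In 13 of the rows the wild-type value is listed at 0 and in 4 the Δ*czt-1* value, so no fold is given for them. The median row differed by 0.06. The FPKM summed to 877439 in Δ*czt-1* and to 1072129 in the wild type, and bringing the libraries to equal sums moved the median row to 0.32, which turns the balance to 481 rows higher (79.0%) and 128 lower (21.0%). Medians of gene groups are to be read against the median row, 0.06 as deposited and 0 when length-centred. Read totals were not among the values used here, so the depth is unknown.

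**Figure D1:**
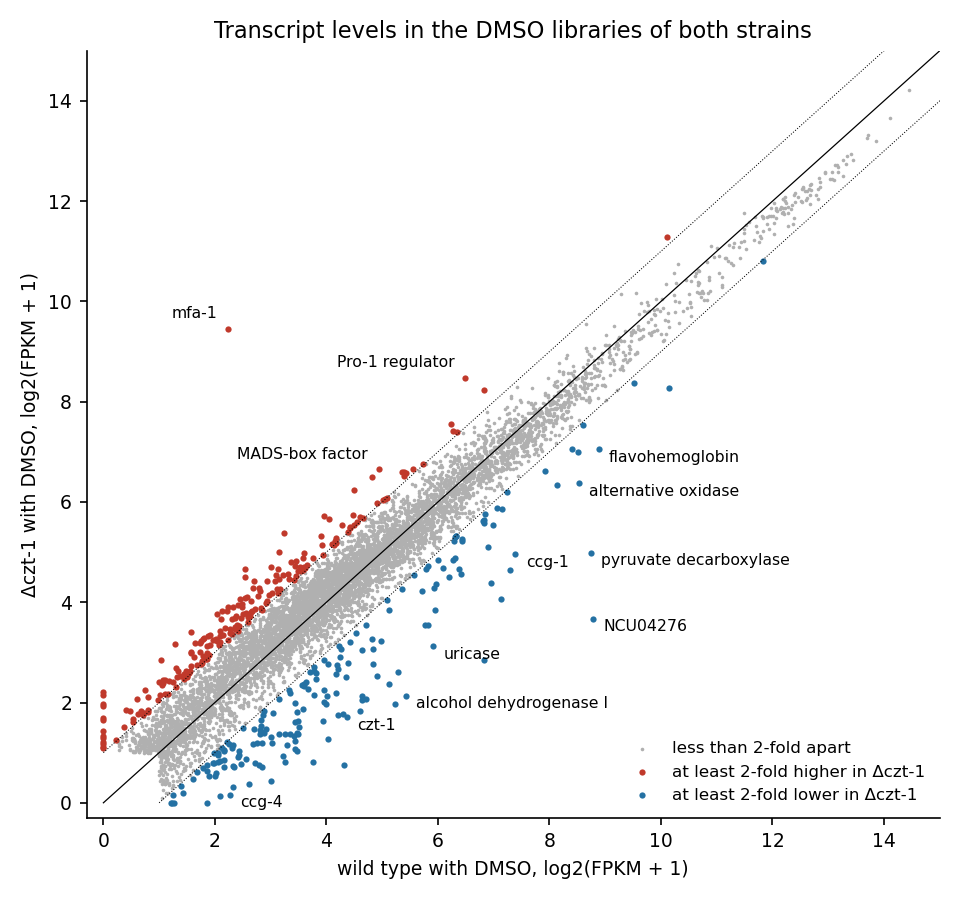
Levels of the 7312 rows kept, as log2(FPKM + 1), in the wild type (x axis) and Δ*czt-1* (y axis) with DMSO, 1 library each. Red points are the 204 rows at least 2-fold higher in Δ*czt-1* and blue points the 186 at least 2-fold lower, the solid line marks equal levels and the dotted lines 2-fold, and *mfa-1* stands farthest from the rest.

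The wild-type DMSO library stood apart from the other 3 in long genes. With the rows ordered by gene length in the reference annotation of the NC12 assembly (6993 rows, 95.6% of those kept, had a length) and cut into 10 bins, the median difference with DMSO climbed bin by bin and was −0.23 for the shortest genes, 165 to 1311 bases, and 0.44 for the longest, 4446 to 34205 bases. The longest bin held 48 rows at least 2-fold higher and 2 at least 2-fold lower. Its median level was 13.8 FPKM in Δ*czt-1* with DMSO, 9.76 FPKM in the wild type with DMSO, 12.7 FPKM in Δ*czt-1* with staurosporine and 13.4 FPKM in the wild type with staurosporine. Spearman's rho between difference and length, a description across genes that share the same libraries, was 0.40 with DMSO and −0.08 with staurosporine. The trend was present at every level of expression: with rows cut into 4 classes by level and 4 by length, the median difference at the highest levels was −0.26 in the shortest class and 0.15 in the longest, and at the lowest levels it was −0.05 and 0.39. The source of the trend was not tested. For this reason many groups below also have a length-centred median, for which the median difference of rows of like length (20 bins) was subtracted. This correction was added after the trend had been seen.

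**Figure D2:**
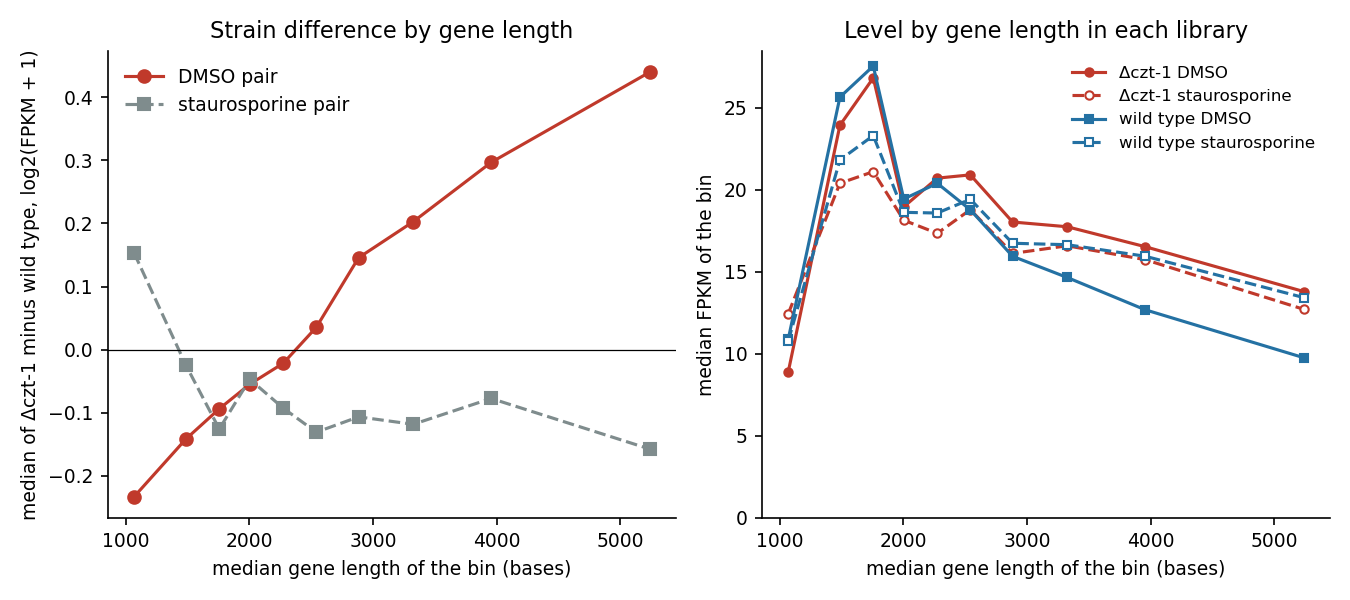
Left, median difference between Δ*czt-1* and the wild type in 10 bins of gene length, for the DMSO pair (red) and the staurosporine pair (grey), on the log2(FPKM + 1) scale. Right, median FPKM of the same bins in the 4 libraries, with Δ*czt-1* in red and the wild type in blue; the wild-type DMSO library is the lowest of the 4 in the bins of longer genes, at 9.76 FPKM in the longest.

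Genes of alcohol fermentation and of related carbon metabolism were among the largest falls in Δ*czt-1*. Pyruvate decarboxylase (NCU02193), which makes acetaldehyde from pyruvate, fell to 30.7 FPKM in Δ*czt-1*, against 428 FPKM in the wild type (−3.76). Alcohol dehydrogenase I (NCU01754), which interconverts acetaldehyde and ethanol, fell to 3.41 FPKM in Δ*czt-1*, against 41.8 FPKM in the wild type (−3.28). A second pyruvate decarboxylase, NCU02397, also passed 2-fold, with 4.20 FPKM in Δ*czt-1* and 11.1 FPKM in the wild type (−1.22), as did an NADP-dependent alcohol dehydrogenase, NCU04823, with 3.56 and 16.9 FPKM in that order (−1.98). The falls were thus carried by 4 of the 24 rows of the fermentation and aldehyde list (2.54% of all rows kept fell), and no row of the list rose 2-fold. The other members lay on both sides, so that 11 of the 24 were above 0 (55.3% of all rows kept were), and the median was −0.16 (−0.03 length-centred). Among the rest, an aldehyde dehydrogenase (NCU04013) had 89.9 FPKM in Δ*czt-1* and 58.3 FPKM in the wild type (0.61). The 4 genes that fell differed in the staurosporine pair by 0.80, 2.15, 0.28 and −0.75, in the order given here.

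Other named genes of carbon, nitrogen and energy metabolism fell as well. Phosphoenolpyruvate carboxykinase (NCU09873), the entry step of gluconeogenesis, fell to 3.19 FPKM in Δ*czt-1*, against 25.3 FPKM in the wild type (−2.65), while 6 other rows of the glyoxylate cycle and gluconeogenesis list stayed under 2-fold, from −0.37 for carnitine acetyl transferase (NCU08002) to 0.39 for acetyl-CoA hydrolase (NCU09770). Alternative oxidase (NCU07953), which passes electrons from ubiquinol to oxygen without complexes III and IV, fell to 81.8 FPKM, against 369 FPKM in the wild type (−2.16). Uricase (NCU07853), a purine-degrading enzyme, fell to 7.71 FPKM, against 59.4 FPKM in the wild type (−2.79). Flavohemoglobin (NCU10051), which detoxifies nitric oxide, fell to 132 FPKM in Δ*czt-1*, against 470 FPKM in the wild type (−1.83). The clock-controlled *ccg-1* (NCU03753), also known as glucose-repressible, fell to 30.1 FPKM in Δ*czt-1*, against 166 FPKM in the wild type (−2.43). Length-centred, these differences were of like size, for example −2.87 for phosphoenolpyruvate carboxykinase and −2.07 for alternative oxidase.

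Of the 12 largest falls among rows with at least 10 FPKM in either library, 9 are hypothetical proteins. The largest was NCU04276, with 11.7 FPKM in Δ*czt-1* and 441 FPKM in the wild type (−5.12), and it had 2.97 and 3.77 FPKM in the staurosporine libraries of the same strains. NCU06940 had 6.22 FPKM in Δ*czt-1* and 113 FPKM in the wild type (−3.98). The other 7, NCU07235, NCU01555, NCU01871, NCU07352, NCU00766, NCU09020 and NCU04605, had differences between −3.57 and −2.75. For NCU04276, pyruvate decarboxylase, phosphoenolpyruvate carboxykinase, alternative oxidase and flavohemoglobin, the wild-type DMSO library was the highest of the 4. It was so for 123 of the 186 rows that fell (66.1%), compared with 24.2% of all rows kept, a share that the choice of rows by a high wild-type DMSO value favours. In 68 of them it lay at least 2-fold above each of the other 3 libraries, and in 47 the Δ*czt-1* DMSO library lay at least 2-fold below each of the other 3. Any row that meets either rule is among the 186 by the choice of rows. Over all rows kept, the Δ*czt-1* staurosporine library lay at least 2-fold above the other 3 in 404 rows and below them in 599. For the wild-type staurosporine library these counts were 135 and 62.

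**Figure D3:**
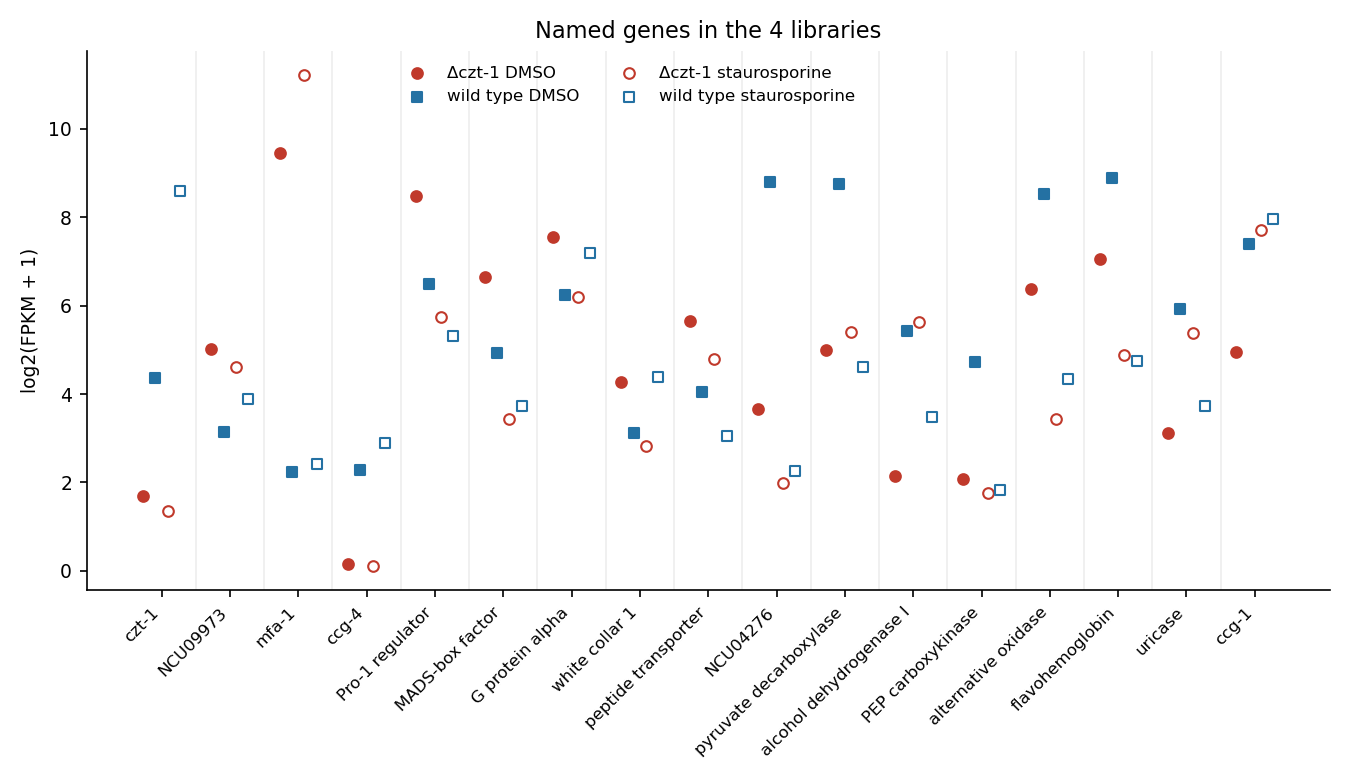
Levels of 17 named genes as log2(FPKM + 1) in the 4 libraries, 1 culture each; red circles are Δ*czt-1* and blue squares the wild type, filled with DMSO and open with staurosporine. The strain order with DMSO was kept with staurosporine for *czt-1*, *mfa-1* and *ccg-4*, and also for others such as NCU09973, the peptide transporter and alternative oxidase. It turned for several genes, among them alcohol dehydrogenase I, with 3.41 and 41.8 FPKM with DMSO and 48.2 and 10.1 FPKM with staurosporine in Δ*czt-1* and the wild type.

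The largest rise was that of a pheromone gene. The pheromone precursor *mfa-1* (NCU12157) reached 703 FPKM in Δ*czt-1*, against 3.72 FPKM in the wild type (7.22), and 2367 and 4.32 FPKM with staurosporine. The other pheromone gene, *ccg-4* (NCU02500), had 0.12 FPKM in Δ*czt-1* and 3.83 FPKM in the wild type (−2.11), and 0.08 and 6.39 FPKM with staurosporine. The mating-type gene *mat A-1* (NCU01958) is listed at 0 in both Δ*czt-1* libraries, and had 0.94 FPKM in the wild type with DMSO and 2.10 FPKM with staurosporine. *mat A-2* and *mat A-3* were at or near 0 in all 4 libraries. A pheromone receptor, NCU05758, had 0.24 FPKM in Δ*czt-1* and 0.06 FPKM in the wild type with DMSO, and 2.37 and 0 FPKM with staurosporine, while the receptor gene *pre-1* (NCU00138) had 0.43 and 0.71 FPKM with DMSO. In both pairs *mat A-1* was thus listed at 0 in the Δ*czt-1* library and above 0 in the wild-type library, and *mfa-1* was far above *ccg-4* in Δ*czt-1*, whereas the 2 pheromone genes were at like levels in the wild type. The labels name no mating type, and for these genes the deletion and the mating type cannot be told apart. The same holds for every other row, since each genotype is 1 strain and the strains may differ in more than the deletion. Of the 13 rows of the pheromone and mating list 7 were kept, of which *mfa-1* rose, *ccg-4* fell and 5 stayed under 2-fold, with a median of −0.19. The fertility factor gene *steA* (NCU00340), a homeodomain regulator, had 81.5 FPKM in Δ*czt-1* and 45.1 FPKM in the wild type (0.84). Beside the mating-type genes on the chromosome, the row AR2 (NCU01957) rose to 8.37 FPKM in Δ*czt-1*, against 2.38 FPKM in the wild type (1.47), and no other of the 8 rows on either side passed 2-fold.

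Of the 78 rows of sequence-specific transcription factors, 9 rose at least 2-fold in Δ*czt-1* (2.79% of all rows kept did) and 1, *czt-1* itself, fell (2.54% of all rows kept did). In all, 67 were above 0, or 85.9%, compared with 55.3% of all rows kept. The median was 0.44, against 0.06 over all rows kept, and 0.21 length-centred. The regulator Pro-1 (NCU07392), a zinc cluster protein required for sexual development in related fungi, rose to 356 FPKM in Δ*czt-1*, against 88.3 FPKM in the wild type (1.998). A MADS-box factor of the MEF2 type (NCU02558) rose to 99.3 FPKM, against 29.6 FPKM in the wild type (1.71). The other 7 rises lay between 1.04 and 1.54. They included *acu-15* (NCU06656), an activator of acetate utilisation genes, with 24.1 FPKM in Δ*czt-1* and 10.6 FPKM in the wild type (1.12), and *white collar 1* (NCU02356), the blue-light receptor and clock activator, with 18.2 FPKM in Δ*czt-1* and 7.64 FPKM in the wild type (1.15, or 0.65 length-centred). With staurosporine the same list had a median of −0.19, and the Pro-1 and MADS-box rows differed by 0.43 and −0.31.

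Chromatin, DNA replication and cell cycle genes lay above the median row as groups, and nearer to it once gene length was taken into account. In the chromatin list 3 of 50 rows rose (2.79% of all rows kept did), 39 were above 0 (55.3% of all rows kept were) and the median was 0.33 (0.06 length-centred). They included the histone acetyltransferase GCN5 (NCU10847), with 8.58 FPKM in Δ*czt-1* and 2.45 FPKM in the wild type (1.48), and an INO80 remodeling complex row (NCU01362), with 21.97 and 9.93 FPKM (1.07). Length-centred, these 2 rows differed by 1.31 and 0.75. DNA replication and repair had no row of 63 past 2-fold and a median of 0.30 (0.09 length-centred). In the cell cycle list 2 of 47 rows rose, near the 2.79% of all rows kept, a mitotic checkpoint protein (NCU03237, 14.0 FPKM in Δ*czt-1* and 4.61 FPKM in the wild type) and cell division control protein 25 (NCU06500, 36.4 and 16.8 FPKM), and the median was 0.28 (0.11 length-centred). RNA polymerase and mediator subunits (27 rows) and splicing factors (68 rows) had no row past 2-fold and medians of 0.15 and 0.06 (0.14 and −0.01 length-centred).

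Signaling genes followed the same order. Of 20 rows of G proteins and cAMP signaling 3 rose and none fell, compared with 2.79% and 2.54% of all rows kept, and 16 were above 0, compared with 55.3%, with a median of 0.51 (0.23 length-centred). The row described as heterotrimeric G protein (NCU06493) rose to 188 FPKM in Δ*czt-1*, against 74.1 FPKM in the wild type (1.33). The α subunits NCU06729 and NCU05206 had 26.4 and 14.4 FPKM in Δ*czt-1*, against 13.2 and 7.001 FPKM in the wild type (0.95 and 0.94). The β subunit (NCU00440), the γ subunit (NCU00041) and adenylate cyclase (NCU08377) differed by 0.60, 0.63 and 0.63, whereas the catalytic (NCU06240) and regulatory (NCU01166) subunits of the cAMP-dependent kinase differed by −0.08 and 0.03. The other rises were a G-protein coupled receptor (NCU04626), which differed by 1.29, and NCU00478, a hypothetical protein, which rose to 9.59 FPKM, against 1.96 FPKM in the wild type (1.84). The most abundant row of the list, a guanine nucleotide-binding protein subunit (NCU05810), with 3496 FPKM in Δ*czt-1* and 4605 FPKM in the wild type, was its lowest (−0.40). No protein kinase of 81 passed 2-fold and their median was 0.22, or 0.00 length-centred. In the calcium list, 2 of 29 rows rose (2.79% of all rows kept did), a phosphatidylinositol-specific phospholipase C (NCU02175, 18.4 FPKM in Δ*czt-1* and 5.43 FPKM in the wild type) and the calcium-transporting ATPase 3 (NCU05046, 96.3 and 40.04 FPKM), and calmodulin (NCU04120), the calcium sensor, had 686 and 979 FPKM (−0.51). Length-centred, the 2 rises of the calcium list were 1.27 and 0.88. The 45 small GTPase rows held 2 rises, near the 2.79% of all rows kept, led by a GTPase-activating protein for Sar1 (NCU06122, 1.39), and had a median of 0.21 (0.04 length-centred). Protein phosphatases had no row past 2-fold and a median of 0.08 (−0.09 length-centred).

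Transporters of peptides, amino acids and drugs were also above the median row. Of 23 amino acid and peptide permeases 2 rose (2.79% of all rows kept did) and 19 were above 0 (55.3% of all rows kept were), with a median of 0.46 (0.25 length-centred). The peptide transporter NCU05079 had 49.6 FPKM in Δ*czt-1* and 15.5 FPKM in the wild type (1.62) with DMSO, and 26.7 and 7.28 FPKM (1.74) with staurosporine. A second peptide transporter, NCU08738, rose to 13.5 FPKM, against 5.59 FPKM (1.14). Among 17 ABC transporters 3 rose (2.79% of all rows kept did), NCU07276 (1.21), NCU07546 (1.08) and NCU08056 (1.01), and the median was 0.51 as deposited but 0.07 length-centred, the genes of this list having a median length of 5155 bases against 2397 bases over all rows. Length-centred, these 3 rows differed by 0.70, 0.71 and 0.51, so none of them stayed past 2-fold. Reads shared by near-identical family members may be split between them, which leaves single members of such families uncertain. The list of MFS and other drug transporters, which shares both peptide transporters, had 3 rises among 52 rows (2.79% of all rows kept rose) and a median of 0.23. Sugar transporters were centred on the median row (0.01 over 22 rows), with 1 fall, the monosaccharide transporter NCU04537, at 24.7 FPKM in Δ*czt-1* and 67.0 FPKM in the wild type (−1.40). In the list of phosphate, sulfate and nitrogen use, sulfate permease II (NCU03235) rose to 21.1 FPKM, against 7.83 FPKM (1.32), and the phosphate-repressible phosphate permease (NCU09564) fell to 7.42 FPKM, against 27.4 FPKM (−1.75). The other fall of that list was a phosphatidic acid phosphatase (NCU09692, −2.20), an enzyme of lipid metabolism. None of 17 iron, copper and zinc genes passed 2-fold, the lowest being an iron permease (NCU03497, −0.97).

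The listed respiratory and ribosomal protein genes lay below the median row as groups, by less than 2-fold. The respiratory lists hold no row of the mitochondrial chromosome, since the table gives no descriptions for that chromosome. Of the 15 mitochondrial rows kept, 14 were above 0, with a median of 1.00, as described further below. Length centring does not adjust for level, and highly expressed rows of all kinds lay low. In the highest of 4 level classes the median difference was −0.26 in the shortest of 4 length classes and −0.16 in the next. Measured against such rows, these groups lay less far below than against the median row. ATP synthase rows had a median of −0.59 (−0.44 length-centred) and 12 of 13 were below 0, compared with 3272 of all 7312 rows kept. The β subunit (NCU05430) had 2995 FPKM in Δ*czt-1* and 5255 FPKM in the wild type (−0.81), and the assembly factor Atp10 (NCU02705) was the only row above 0 (0.29). All 16 rows of complexes II, III and IV were below 0, with a median of −0.53 (−0.48 length-centred). One of them passed 2-fold, the cytochrome b560 subunit of succinate dehydrogenase (NCU07756), with 329 FPKM in Δ*czt-1* and 729 FPKM in the wild type (−1.15). Of 30 complex I rows 28 were below 0 (median −0.33, −0.21 length-centred), and none passed 2-fold. The other 3 rows of the list of alternative oxidase and alternative NADH dehydrogenases differed by −0.94 (NCU05225), −0.15 (NCU08980) and 0.54 (NCU00153). Relative to the median row, the medians of ATP synthase, complexes II to IV and complex I were −0.65, −0.58 and −0.38 as deposited, and −0.62, −0.56 and −0.37 with equal FPKM sums. The rows of the tricarboxylic acid cycle had a median of −0.17 (−0.22 length-centred), glycolysis of 0.03 (−0.06 length-centred), the pentose phosphate pathway of 0.23 (0.05 length-centred), and neither of these last lists had a row past 2-fold. With staurosporine, the medians were 0.25 for ATP synthase, 0.15 for complexes II to IV and −0.15 for complex I.

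Cytosolic ribosomal proteins had the highest levels in both libraries, with medians of 3751 FPKM in Δ*czt-1* and 4724 FPKM in the wild type, and 81 of 88 rows were below 0 (3272 of all 7312 rows kept were). Their median difference was −0.37 (−0.26 length-centred), which relative to the median row is −0.43 as deposited and −0.40 with equal FPKM sums, the range was −0.77 to 0.40, and no row passed 2-fold. The lowest was L22 (NCU06661), at 4231 FPKM in Δ*czt-1* and 7217 FPKM in the wild type, and the highest a ribosomal protein S16 row (NCU08071), at 91.6 and 69.3 FPKM. The description of the S16 row does not say that it is cytosolic, and its level is far below the list median. With staurosporine the median of the list was 0.41. The 28 mitochondrial ribosomal proteins had a median of −0.24 with DMSO, or −0.13 length-centred. Equal FPKM sums bring this median to 0.05, but relative to the median row it was −0.29 as deposited and −0.27 with equal sums. Ribosome biogenesis and rRNA processing (50 rows) lay near the median row (−0.07) with 1 rise, nucleolar complex protein 4 (NCU00501, 25.9 FPKM in Δ*czt-1* and 11.5 FPKM in the wild type), and had a median of −1.98 between the strains with staurosporine. Aminoacyl-tRNA synthetases and translation factors had medians of −0.05 each (−0.15 and −0.17 length-centred), and 1 of these rows passed 2-fold, an aspartyl-tRNA synthetase (NCU07082) with 0.90 FPKM in Δ*czt-1* and 8.36 FPKM in the wild type (−2.30). The 10 most expressed rows of the table, led by elongation factor 1 alpha (NCU02003, 19167 FPKM in Δ*czt-1* and 22464 FPKM in the wild type), were all below 0, between −0.66 and −0.23. In the highest of 10 level bins of all rows kept, the median difference was −0.23.

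**Figure D4:**
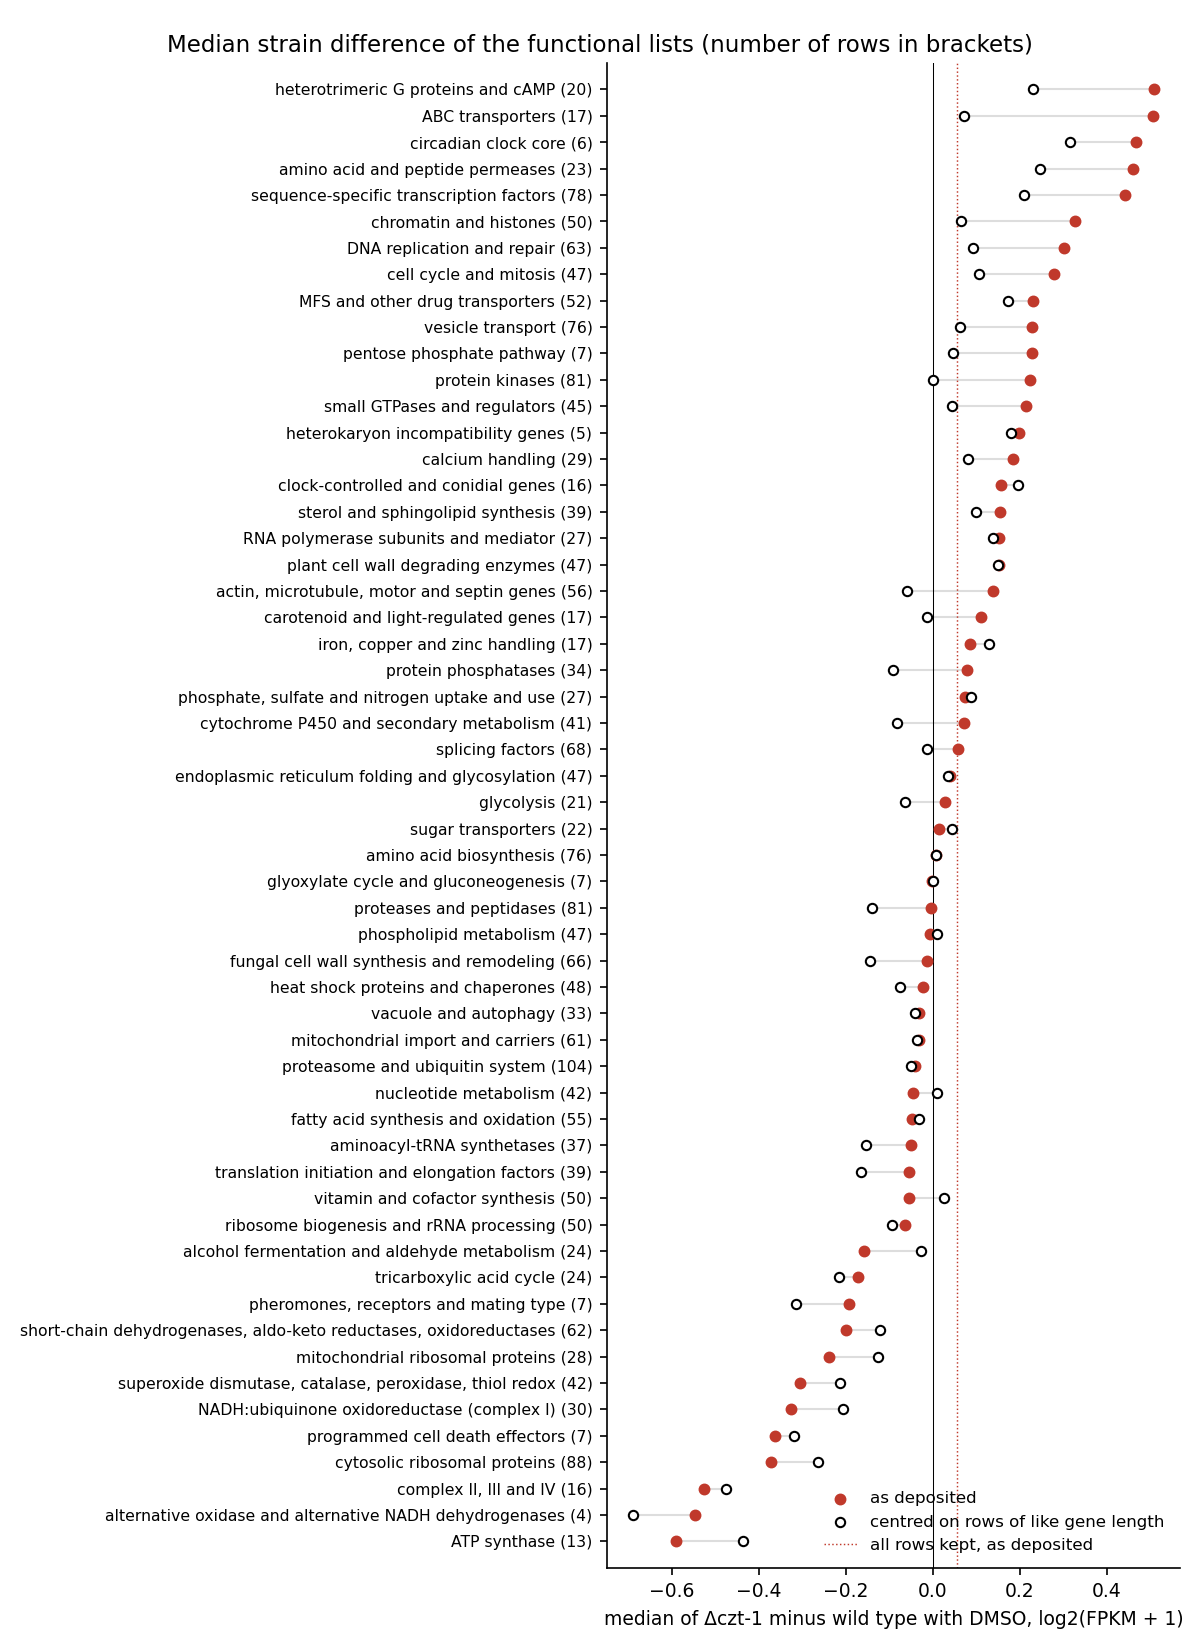
Median difference between Δ*czt-1* and the wild type with DMSO, on the log2(FPKM + 1) scale, of the 56 functional lists (rows kept in brackets). Filled points are the values as deposited, open points those centred on rows of like gene length, and the dotted line the median of all rows kept, 0.06; the ABC transporters are at 0.51 and 0.07. With equal FPKM sums all rows shift together (the median row to 0.32), so that 49 of the 56 medians are above 0, compared with 30 as deposited, while 4 lists change side of the median row under equal sums or equal upper quartiles.

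Redox genes lay mostly below 0 without passing 2-fold. In the list of superoxide dismutases, catalases, peroxidases and thiol redox proteins 32 of 42 rows were below 0 (3272 of all 7312 rows kept were). Of these 42 rows 2 fell (2.54% of all rows kept did) and none rose, and the median was −0.30 (−0.21 length-centred). The falls were flavohemoglobin and an S-(hydroxymethyl)glutathione dehydrogenase (NCU11395), at 0.81 FPKM in Δ*czt-1* and 3.47 FPKM in the wild type. Monothiol glutaredoxin-5 (NCU04098), an iron-sulfur cluster protein, had 143 FPKM in Δ*czt-1* and 277 FPKM in the wild type (−0.95). Short-chain dehydrogenases and other oxidoreductases had 1 rise and 4 falls among 62 rows (2.79% of all rows kept rose and 2.54% fell). Their median was −0.20 (−0.12 length-centred). Heat shock proteins and chaperones had no row of 48 past 2-fold (median −0.02). Of 7 rows listed as programmed cell death effectors, metacaspase-1A (NCU09882) had 28.0 FPKM in Δ*czt-1* and 40.7 FPKM in the wild type (−0.53) and metacaspase-1B (NCU02400) 24.3 and 27.1 FPKM (−0.15). The only member of that list past 2-fold was NCU06061, described as an oxidoreductase, which rose to 9.27 FPKM, against 3.97 FPKM (1.05).

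Clock, light and conidiation genes differed in both directions. All 6 core clock rows were above 0, with a median of 0.47 (0.32 length-centred), and of these *white collar 1* passed 2-fold. The period protein gene *frq* (NCU02265) had 49.1 FPKM in Δ*czt-1* and 24.8 FPKM in the wild type (0.96), and the photoadaptation gene *vvd* (NCU03967) 103 and 63.8 FPKM (0.68). Of the carotenoid enzymes, phytoene desaturase (NCU00552) fell to 9.42 FPKM in Δ*czt-1*, against 22.2 FPKM in the wild type (−1.16), and phytoene synthase (NCU00585) had 14.2 and 27.1 FPKM (−0.89). The 16 rows of clock-controlled and conidial genes held 2 rises and 2 falls (2.79% and 2.54% of all rows kept). The rodlet hydrophobin gene (NCU08457), whose product coats conidia, rose to 44.0 FPKM in Δ*czt-1*, against 20.5 FPKM in the wild type (1.06), and differed by 1.07 with staurosporine. The conidiation markers *con-6* (NCU08769), *con-8* (NCU09235) and *con-10* (NCU07325) had at most 2.04 FPKM in either DMSO library, with differences of −0.01, 0.51 and 0.02.

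Lipid, cell wall and secretory genes were centred near the median row. In the cell wall list 3 of 66 rows fell, near the 2.54% of all rows kept, and none rose, and the median was −0.01 (−0.14 length-centred). Among them were the non-anchored cell wall proteins 1 (NCU05137, 8.67 FPKM in Δ*czt-1* and 27.1 FPKM in the wild type) and 3 (NCU07817, 5.10 and 11.99 FPKM). In the phospholipid list 1 of 47 rows rose and 2 fell (2.79% and 2.54% of all rows kept did). Choline sulfatase (NCU08364) fell to 21.6 FPKM, against 72.6 FPKM (−1.71), with −1.49 in the staurosporine pair, and phosphatidylserine synthase (NCU02381) fell to 49.2 FPKM, against 112 FPKM (−1.17). The rise was that of an ethanolaminephosphotransferase (NCU01993), to 29.6 FPKM in Δ*czt-1*, against 14.3 FPKM in the wild type (1.00). The capsule-associated α-1,3-mannosyltransferase CMT1 (NCU05916), a role known from *Cryptococcus*, rose to 51.5 FPKM in Δ*czt-1*, against 14.5 FPKM in the wild type (1.76), as the only row of 47 in the list of endoplasmic reticulum folding and glycosylation past 2-fold. In the plant cell wall degradation list 2 of 47 rows rose and 1 fell (2.79% and 2.54% of all rows kept did). Of these 2 rises, 1 was that of a transcription factor and not of an enzyme, the cutinase G-box binding protein (NCU02671, 65.6 FPKM in Δ*czt-1* and 32.2 FPKM in the wild type). The fall was that of an acetyl xylan esterase (NCU04494), to 13.4 FPKM, against 33.8 FPKM. Vesicle transport, vacuole and autophagy, sterol and sphingolipid synthesis, proteases and amino acid biosynthesis had no row past 2-fold, with medians from −0.03 to 0.23. The remaining lists of metabolism, protein turnover, cytoskeleton and mitochondrial import each had at most 2 rows past 2-fold in 1 direction and medians from −0.06 to 0.14. In the cytoskeleton list the kinesin NCU06832 rose to 27.3 FPKM in Δ*czt-1*, against 10.02 FPKM in the wild type (1.36, or 0.86 length-centred). Pyridoxal reductase (NCU09141), of the cofactor list, fell to 37.1 FPKM, against 84.9 FPKM (−1.17), and had 72.0 FPKM in Δ*czt-1* and 5802 FPKM in the wild type with staurosporine.

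Of the rows of the mitochondrial chromosome, 7 of 15 rose (2.79% of all rows kept did), a group chosen after its values had been seen. The NC12 annotation places 17 rows there, 7 of them joining several loci, and 15 were kept. None fell 2-fold, 14 were above 0 (55.3% of all rows kept were), and the median was 1.00, compared with medians between 0.04 and 0.08 for the 7 nuclear chromosomes. A row joining NCU16008 to NCU16012 had 40.5 FPKM in Δ*czt-1* and 8.39 FPKM in the wild type (2.14), and NCU16028 had 74.8 and 21.5 FPKM (1.76). In the staurosporine pair these 2 rows differed by −0.21 and −0.12, and the median of the 15 was −0.14. The table gives no descriptions for them. The RNA of each library was purified on oligo(dT) beads, and the effect of this step on the mitochondrial rows was not tested. In the order of the NC12 annotation, 45 nuclear genes past 2-fold lay beside another that passed it in the same direction, in 18 runs of 2 and 3 runs of 3. They belong to the 390 rows past 2-fold, 5.33% of the rows kept. The number of runs to be met without any clustering was not worked out, so these runs are a description only. The runs of 3 were NCU03234, NCU03235 and NCU03237 on chromosome I and NCU02329, NCU02328 and NCU02327 on chromosome VII, all higher, and NCU12035, NCU09564 and NCU09562 on chromosome VII, all lower. The first holds sulfate permease II and the mitotic checkpoint protein, the second an O-methyltransferase (NCU02328, 52.8 FPKM in Δ*czt-1* and 21.3 FPKM in the wild type), and the third the phosphate permease.

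The strain differences seen with DMSO were set beside those of the staurosporine pair, which shares no library with it but differs in treatment. Of the 204 rows higher in Δ*czt-1* with DMSO, 85 (41.7%) were also above 0 with staurosporine, compared with 46.0% of all rows kept, and 17 (8.33%) were again at least 2-fold higher, compared with 8.78%. Of the 186 rows lower with DMSO, 72 (38.7%) were below 0 with staurosporine, compared with 54.0%, and 18 (9.68%) were again at least 2-fold lower, compared with 12.9%. Both shares are at or under the share of all rows. In the opposite direction, 32 of the 204 (15.7%) were at least 2-fold lower with staurosporine, compared with 12.9% of all rows kept, and 40 of the 186 (21.5%) at least 2-fold higher, compared with 8.78%. Across the 7312 rows Pearson's r between the differences was −0.02, a description across genes. Among the 17 rows higher in both pairs were *mfa-1*, the peptide transporter NCU05079 and the rodlet hydrophobin gene, and among the 18 lower in both were *czt-1*, *ccg-4*, choline sulfatase, the monosaccharide transporter NCU04537 and pyridoxal reductase.

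**Figure D5:**
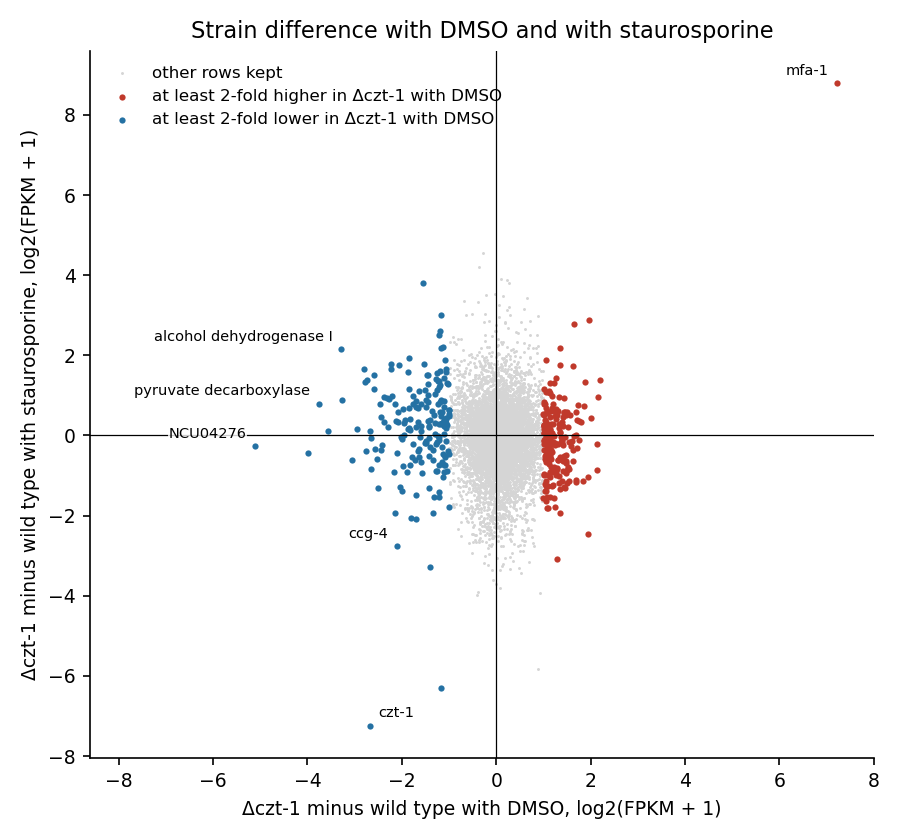
Difference between Δ*czt-1* and the wild type on the log2(FPKM + 1) scale with DMSO (x axis) and with staurosporine (y axis) for the 7312 rows kept. Red and blue points are the 204 rows at least 2-fold higher and the 186 at least 2-fold lower with DMSO, and 85 of the red points lie above 0 on the y axis and 72 of the blue points below it.

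The size of the differences varied with the level of expression. In 10 bins of the mean log2(FPKM + 1), the SD of the differences was 0.59 in the lowest bin, 0.65 in the second and 0.37 in the highest. At least 2-fold apart were 8.06% of the rows in the lowest bin, 11.4% in the second and 1.78% in the highest, where the median difference was −0.23. Of the 390 rows past 2-fold, 222 had at least 10 FPKM in either library.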

How the data were processed

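Per the labels, poly(A) RNA was purified on oligo(dT) beads and sequenced from 4 cultures, 1 per group. Reads were single, of 50 bases. The submitters' processing notes name TopHat2 2.0.4 and Cufflinks 2.0.2, with which the authors aligned reads and estimated abundance. For the genome build, the sources used here name none. The deposited values used are FPKM, written with a decimal comma, and give no depth per library. At the lowest values, 22 of the 776 rows between 0 and 0.5 FPKM in both DMSO libraries shared a Δ*czt-1* to wild-type ratio of 0.716 (within 0.005 on the log2 scale). The deposited columns of fold changes, test statistics, p-values, q-values and significance calls from Cuffdiff were not used.

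Differences of log2(FPKM + 1) were computed over rows with FPKM of at least 1 in either DMSO library and counted at 2-fold, with Python 3.11.15, pandas 2.3.3 and NumPy 2.4.6. The 56 lists were made from words in the Broad gene descriptions or by locus, and they share genes. Members, lists and alternatives were chosen with earlier results of these data known. Named by rule were *czt-1* with 3 genes on each side, the 12 largest differences per direction among rows with at least 10 FPKM, the 2 highest and 2 lowest of each list with at least 5 FPKM, genes listed by locus and the 10 most expressed rows. Others were named after their values were seen (NCU02397, NCU04626, NCU06656, NCU11395, AR2, mitochondrial rows, runs of neighbours). Gene order and lengths came from NC12, where 9141 of 9691 row names matched. Scripts were tested on simulated data. Alternatives were pseudocounts of 0.1 and 5, no filter, 10 FPKM, centring, scaling to equal sums or upper quartiles, the other tables' values, thresholds of 1.5-fold and 3-fold and, added later, length centring.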

Additional observations from a re-analysis of the deposited data

Results flagged for a closer look

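The strain difference took opposite directions with DMSO and with staurosporine, at least 2-fold in each pair, for 21 of the genes named here and for 72 of the 390 rows past 2-fold with DMSO. Of all rows kept, 8.78% were at least 2-fold higher in Δ*czt-1* with staurosporine and 12.9% at least 2-fold lower, so part of these reversals is met among any rows. The difference between the pairs was not tested, since each condition is 1 library. The values are Δ*czt-1* minus wild type on the log2(FPKM + 1) scale, with DMSO and then with staurosporine. Lower in Δ*czt-1* with DMSO and higher with staurosporine were alcohol dehydrogenase I (NCU01754) with −3.28 and 2.15, uricase (NCU07853) with −2.79 and 1.66, NCU00766 with −2.78 and 1.34 and NCU04605 with −2.75 and 1.39, and also non-anchored cell wall protein 1 (NCU05137) with −1.54 and 1.79, a mitochondrial phosphate carrier (NCU07465) with −1.20 and 1.62, non-anchored cell wall protein 3 (NCU07817) with −1.09 and 1.89, S-(hydroxymethyl)glutathione dehydrogenase (NCU11395) with −1.30 and 1.04, NCU12035 with −1.51 and 1.12 and NCU09562 with −1.05 and 1.60. Higher in Δ*czt-1* with DMSO and lower with staurosporine were NCU01993 with 1.00 and −1.57, an oxaloacetate transporter (NCU07884) with 1.06 and −1.37, a multidrug resistance ABC transporter (NCU07546) with 1.08 and −1.82, nucleolar complex protein 4 (NCU00501) with 1.10 and −1.82, white collar 1 (NCU02356) with 1.15 and −1.55 and the mitochondrial carrier RIM2 (NCU01916) with 1.30 and −3.07, and also sulfate permease II (NCU03235) with 1.32 and −1.18, a heterotrimeric G protein (NCU06493) with 1.33 and −1.001, a kinesin (NCU06832) with 1.36 and −1.35, NCU00478 with 1.84 and −1.13 and NCU09395 with 1.95 and −2.47.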

How the results depend on the processing

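As given in the report, 204 rows were at least 2-fold higher in Δ*czt-1* and 186 at least 2-fold lower, 157 of these 390 had the same direction with staurosporine, and the members of the 56 lists, 29.2% of the rows kept, held 72 of the calls. A pseudocount of 0.1 gave 366 higher and 287 lower, with 282 in the same direction, and a pseudocount of 5 gave 54 and 93, with 63 in the same direction and 38 in the lists. Rows with at least 10 FPKM gave 113 and 109, with 95 in the same direction. Equal FPKM sums gave 481 higher and 128 lower, with 251 in the same direction and 136 in the lists. A threshold of 1.5-fold gave 911 and 611, with 652 in the same direction, and 3-fold gave 29 and 83, with 48. Centring on the median row gave 173 and 207, or 45.5% higher, and equal upper quartiles 181 and 196. Length centring, chosen after the data had been seen, gave 142 and 174 of 6993 rows, of which 109 and 145 were also called as deposited. The values in the other tables were identical. Dropping the filter added no call, and could add none, since rows under 1 FPKM in both libraries cannot differ 2-fold on this scale. No named gene changed sign while called, which these alternatives could not bring about: a pseudocount keeps the sign, and the shifts from scaling and centring are smaller than the 2-fold threshold. Of the named genes, 37 of 269 crossed 2-fold with equal sums and 20 of 266 with length centring. No paired analysis was possible because each group is 1 library, and no replicate could be left out. Without depth, counting error at low FPKM cannot be given.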
